A study of Mus musculus with 5 samples.

Results

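The genes described here bear the names of nuclear-encoded subunits of the mitochondrial respiratory chain and ATP synthase, grouped into complexes I to V. They were taken by symbol from the table of molecule counts: names starting Ndufa, Ndufb, Ndufc, Ndufs or Ndufv (complex I), Sdha to Sdhd (complex II), Uqcr (complex III), Cox4 to Cox8 (complex IV) and Atp5 (complex V), without Ndufa4l2 and the Ndufaf assembly factors. This gave 84 of 24411 genes, with 37 members in complex I, 4 in complex II, 8 in complex III, 18 in complex IV and 17 in complex V. Complex V includes Atp5s and Atp5sl by symbol alone, since RefSeq lists them as Dmac2l and Dmac2, without an ATP synthase name.

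The cells came from the heart blood of wild type C57BL/6 mouse embryos and had been sorted as TER119-CD41-CD43-CD45-, that is, without surface proteins of the erythroid, megakaryocyte and leukocyte lineages. Embryos of 2 stages were used, with 2 batches of cells from embryonic day 9.5 (E9.5) and 3 from embryonic day 10 (E10). No group carried a transgene or received a treatment, and the labels do not say whether batches came from separate litters, so p-values measure only the spread between these samples. Of 480 wells 294 passed limits of 1000 genes and 30000 unique molecular identifiers (UMIs, each marking 1 original RNA molecule), with 26, 46, 87, 72 and 63 cells in the batches from E9.5 replicate 1 to E10 replicate 3.

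Cells with at least 400 CPM (UMIs of a gene per 1000000 UMIs of the cell) of Alas2, the erythroid enzyme that starts haem synthesis, are called blood. Those with at least 150 CPM of the neuronal tubulin Tubb3 or 50 CPM of the neural crest factor Sox10 are called neural, and the rest are called other. No cell met both rules. From E9.5 replicate 1 to E10 replicate 3 there were 1, 10, 1, 23 and 11 blood cells, 3, 7, 15, 4 and 20 neural cells, and 22, 29, 71, 45 and 32 other cells. Counts were summed over the cells of a class in a batch, and a sum needed 3 cells, so blood rests on 3 batches and neural and other on 5 each.

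The kept cells held 104791537 UMIs, with a median of 308924 per cell and a range of 31294 to 1407021. All 5 batches used the same 96 barcodes, and no repeated wells were found among the kept cells. The check could flag only a well with far fewer UMIs than the same well number of another batch. With a lower limit of 5000 UMIs it flagged 23 wells. Although the labels call the cells non-hematopoietic, the blood class held 132740 to 192612 CPM of 9 erythroid markers. A list of 9 blood progenitor or leukocyte markers summed to 89.0 to 116 CPM in blood and 9.92 to 76.9 CPM in neural cells. In other cells it summed to 31.5 to 199 CPM. Of this list the leukocyte marker Ptprc was at 0 in every class, and Cd34 was at 0 in blood. The 11 neural markers summed to 724 to 9645 CPM in neural cells and 61.4 to 282 CPM in other cells. Haemoglobin transcripts also appeared outside the blood class and differed between batches: their median share of the UMIs of an other cell was 0.033% in E10 replicate 1 and 5.19% in E10 replicate 2. E10 replicate 1 stood apart in a second way, because 25 of its 87 cells (1 blood, 4 neural and 20 other) held at least 500 CPM of the pluripotency-associated gene Dppa5a.

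As background, complexes I and II pass electrons from NADH and succinate to ubiquinone, complex III passes them to cytochrome c, and complex IV passes them to oxygen. Complexes I, III and IV pump protons, and complex V, the ATP synthase, uses the proton gradient to make ATP. Several subunits of complex IV and the ring-forming subunit c of complex V are made from more than 1 gene, with isoforms that are used in particular tissues or at low oxygen. In the red cell lineage, mitochondria supply the early steps of haem synthesis and are removed as the cells mature. Subunits encoded by mitochondrial DNA are not analysed here.

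Transcripts of the 84 members took about the same share of the UMIs in the 3 classes. Their summed level was 40299.9 ± 4270.5 CPM in blood cells (SD, n = 3), 36020.5 ± 4403 CPM in neural cells (n = 5) and 38075 ± 4203 CPM in other cells (n = 5). In blood the sums were 45003 CPM in E9.5 replicate 2, 36664 CPM in E10 replicate 2 and 39234 CPM in E10 replicate 3. Other cells of the same batches stood at 43679, 36468 and 37479 CPM, and those of E9.5 replicate 1 and E10 replicate 1 at 40282 and 32468 CPM. Blood was above other cells in 3 of 3 batches, but the mean log2 ratio within batches was 0.04 (SD 0.03) and the groups overlapped. Neural cells were below other cells in 5 of 5 batches by a mean log2 ratio of -0.08 (SD 0.07), with sums that again overlapped. This ratio turned to 0.027 when other cells with at least 50 CPM of Myb, a transcription factor gene of blood progenitors, or 500 CPM of Dppa5a were left out. Without these cells the ratio of blood to other cells was 0.16. On totals without haemoglobin genes, and with all other cells kept, the ratio of blood to other cells was 0.27. No test was run on sums over members.

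**Figure D1:**
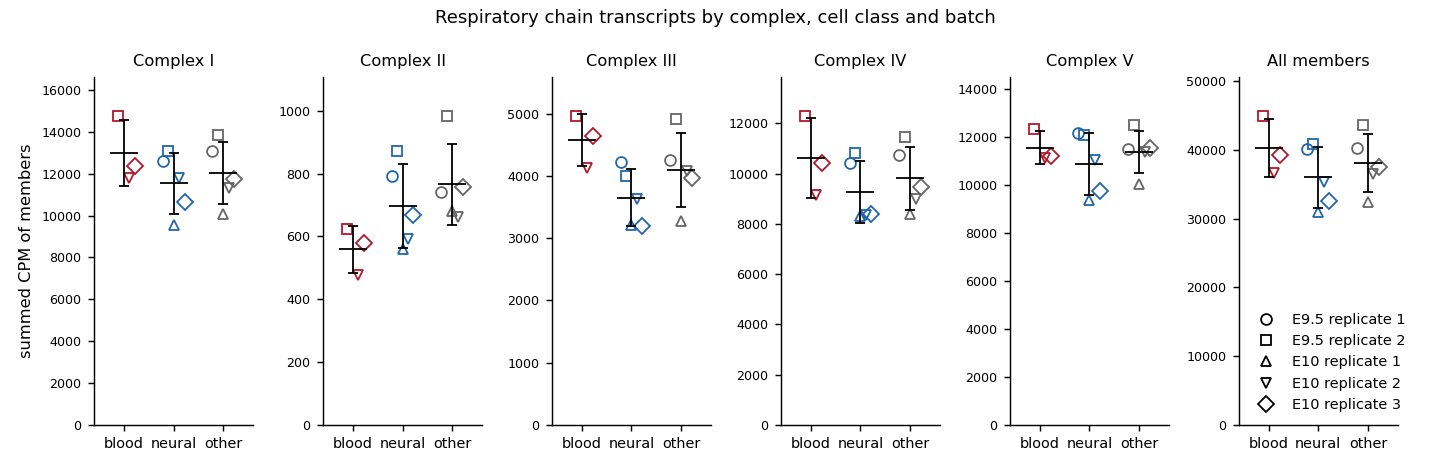
Summed CPM of the members of each complex and of all members, on linear axes from 0, in blood (red), neural (blue) and other cells (grey); each symbol is 1 batch and bars are mean ± SD over batches. Complex II is the 1 complex in which the 3 blood batches, at 477 to 623 CPM, lie below all 5 batches of other cells.

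The balance between complexes was also similar. Complex I made up 32.2% ± 0.645 of the members' UMIs in blood, 32.0% ± 0.981 in neural and 31.5% ± 0.577 in other cells. Complexes IV and V contributed 26.3% ± 1.21 and 28.8% ± 1.44 in blood, and 25.7% ± 0.775 and 30.0% ± 1.33 in other cells. Complex III was at 11.4% ± 0.413 in blood, 10.1% ± 0.323 in neural and 10.7% ± 0.495 in other cells. Complex II, the smallest, was at 1.39% ± 0.087 in blood, 1.93% ± 0.186 in neural and 2.01% ± 0.180 in other cells. The highest blood batch, at 1.47%, was below the lowest batch of other cells, at 1.82%.

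In single cells the spread of the summed level depended on the class and the batch. The upper quartile was 1.09 times the lower one among the 23 blood cells of E10 replicate 2 and among the 11 of E10 replicate 3, and 1.33 times among the 10 of E9.5 replicate 2. Among other cells this ratio ran from 1.16 in E9.5 replicate 2 to 1.35 in E10 replicate 1, and it was 1.54 among the 15 neural cells of E10 replicate 1. The lowest cell of all, a neural cell of E10 replicate 1 that also had the fewest UMIs (31294), held 9555 CPM, and the highest, an other cell of E9.5 replicate 2, held 56845 CPM. Within E10 replicate 1 the summed level was 40820 CPM in the 20 other cells with high Dppa5a and 28302 CPM in the 47 remaining other cells without high Myb. The same was seen in its neural cells, at 40158 CPM in 4 cells with high Dppa5a against 25544 CPM in the other 11. Kept cells with high Dppa5a were found in this batch alone, so the difference has no replicate batch.

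**Figure D2:**
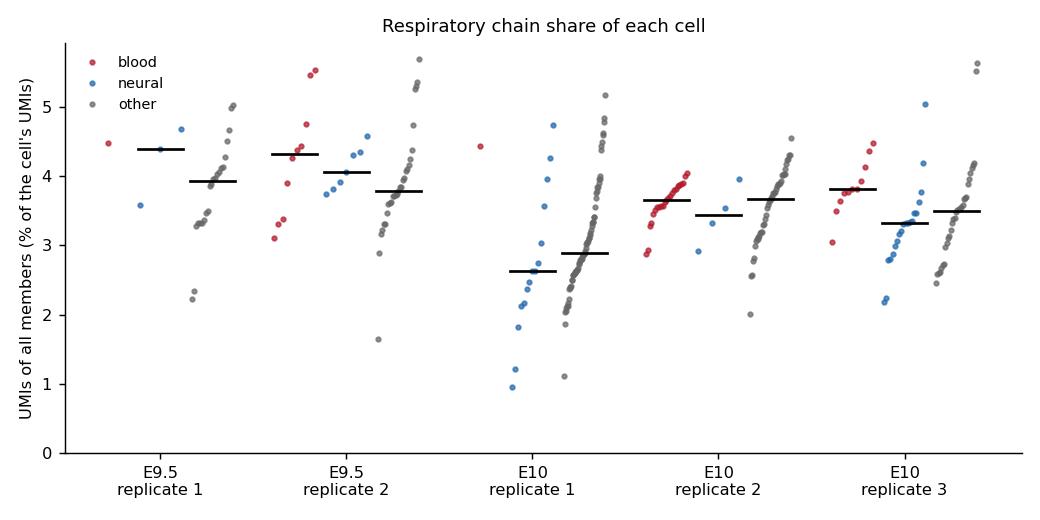
UMIs of all members as a percentage of each cell's UMIs (linear axis from 0), by batch and class; each point is 1 cell and black lines are medians of groups with at least 3 cells. Blood cells of E10 replicates 2 and 3 lie close together, and neural and other cells of E10 replicate 1 reach lowest.

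Complexes I, III, IV and V varied together from cell to cell. Across cells of 1 class and batch, in 7 groups of at least 20 cells, Pearson's r on the log2 scale was 0.68 to 0.89 for complexes I and IV, with a median of 0.74. For complexes I and V it was 0.70 to 0.85, and for complexes I and III 0.47 to 0.77. Complexes I and II gave -0.24 to 0.67, with a median of 0.39. These values are descriptions, because cells share a library, their CPM share a total, and the low counts of complex II carry more counting error.

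Blood cells differed from other cells gene by gene in a way that depended on scaling. The TMM factors of edgeR aim to set the typical gene to an equal level, although the median of all genes was -0.25 here. With them 53 of the 79 members tested were higher in blood and 0 were lower (edgeR quasi-likelihood test, Benjamini-Hochberg adjusted p under 0.05). Among all 12659 genes tested, 6.75% were higher and 7.28% lower under the same rule. At an unadjusted p under 0.05, 65 members were higher and 0 lower, beside 11.9% and 15.9% of all genes. DESeq2 called 63 higher and 0 lower, beside 9.27% and 12.5% of all genes. On TMM-scaled levels each of the 53 was higher in 3 of 3 batches, but on plain CPM 19 were, and 5 were lower in 3 of 3. Atp5a1, the alpha subunit of the ATP synthase head, was 1 of these 5, at 757, 771 and 751 CPM in blood and 946, 874 and 859 CPM in other cells. The 5 members left out for low counts were Ndufs5, Cox6a2, Cox7b2, Cox8b and Cox8c. Ndufs5, a small complex I subunit, and Cox6a2 had 0 UMIs in every well. The 36 complex I members above 1 CPM stood at 91.2 to 857 CPM in other cells. Why Ndufs5 was at 0 was not tested, so the value is not read as absent expression.

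On plain UMI totals 7 members were higher and 2 lower, against 1.93% higher and 21.9% lower of all genes. On totals of the added spike-in RNA 7 were higher and 0 lower, against 2.39% and 8.67%. The same 7 members were higher under all 3 scalings: Ndufa6, Ndufb2 and Ndufs3 of complex I, Uqcrq of complex III, Cox6a1 and Cox6b2 of complex IV, and Atp5e of complex V. The members' median log2 fold change was 0.82 with TMM, 0.54 on spike-in totals and 0.01 on plain totals, whereas that of all genes was -0.25, -0.53 and -1.04. The gap between the medians of members and all genes was 1.06, 1.07 and 1.05. A change of scaling moves all genes of a sum alike, so this gap had to stay nearly the same. It is therefore 1 observation and not 3. Blood totals hold haemoglobin, which made up a median 18.6% of a blood cell's UMIs, and the TMM factors were 0.60 to 0.69 for blood sums against 1.02 to 1.27 for other sums. On totals without haemoglobin genes and without scaling factors the members' median was 0.23, and that of all genes was -0.81. Without E9.5 replicate 2 the number higher with TMM was 19 and without E10 replicate 3 it was 26.

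**Figure D3:**
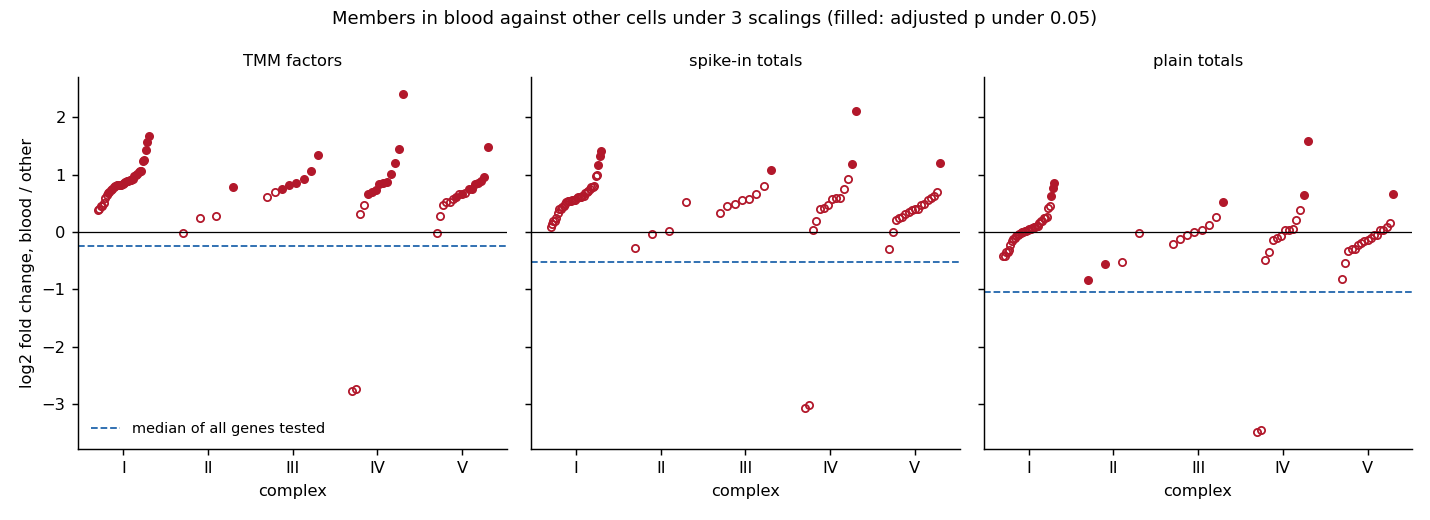
Log2 fold change of each tested member, blood against other cells, by complex, with TMM factors, spike-in totals and plain totals; filled points pass an adjusted p of 0.05 in edgeR and the dashed line is the median of all genes tested. Most members lie above the dashed line in each panel, while their place relative to 0 shifts with the scaling from a median of 0.82 to 0.01. Members and dashed line shift together by construction, so the panels are not separate evidence.

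Spike-in RNA gives a scale that haemoglobin does not enter. The sources used here do not state how much was added per well, so only classes of 1 batch are compared. Per spike-in UMI, the median blood cell held 2.13 member UMIs in E9.5 replicate 2, 2.18 in E10 replicate 2 and 1.95 in E10 replicate 3. The median other cell of these batches held 1.12, 1.49 and 0.899. Blood was higher in 3 of 3 batches, by 0.93, 0.55 and 1.11 on the log2 scale, and total UMIs per spike-in UMI were higher by 0.85, 0.47 and 0.92. The difference in total UMIs was thus nearly as large as that in member UMIs in each batch.

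In complex I, 27 of 36 tested members were higher in blood with TMM, and all 36 fold changes were above 0. Ndufa6, an accessory subunit on the matrix side, stood at 742, 616 and 629 CPM in blood in E9.5 replicate 2 and E10 replicates 2 and 3. In other cells it stood at 428, 381 and 313 CPM in these batches, and at 329 and 252 CPM in E9.5 replicate 1 and E10 replicate 1. The groups did not overlap, and the fold change was 1.68 (SE 0.23, adjusted p = 4.49e-05 with TMM) or 0.86 on plain totals (adjusted p = 0.003). Ndufs3, a core subunit near the quinone site, was at 317, 196 and 270 CPM in blood against 192, 126 and 146 CPM in other cells of the same batches. Its fold change was 1.58 (SE 0.27, adjusted p = 0.0004), or 0.76 on plain totals. Ndufb2, a small subunit of the membrane arm, was at 561, 462 and 522 CPM in blood against 365, 301 and 323 CPM, without overlap with any batch of other cells.

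The other core subunits of complex I named here overlapped between blood and other cells in CPM. Ndufv1, which binds NADH, was at 167 ± 46.4 CPM in blood and 140 ± 13.7 CPM in other cells, and passed the test only with TMM scaling (log2 fold change 0.91, against 0.11 on plain totals). Ndufs7 was at 389 ± 57.6 and 320 ± 83.2 CPM, and it too passed with TMM alone (1.06, against 0.25). Ndufs1 and Ndufs8, further carriers of the electron path, did not pass under any of these scalings in edgeR, with TMM fold changes of 0.80 and 0.65 and adjusted p-values of 0.075 and 0.095. DESeq2 called both, at adjusted p-values of 0.033 and 0.034. Ndufa4, the most abundant member with an Nduf name at 857 ± 184 CPM in other cells, was at 643 ± 129 CPM in blood and did not pass (0.40, adjusted p = 0.22). It is now often counted with complex IV.

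Complex II joins the chain to the tricarboxylic acid cycle. With TMM 1 of its 4 members was higher in blood, and on plain totals 0 were higher and 2 were lower. Among all genes 6.75% were higher with TMM, and 1.93% were higher and 21.9% lower on plain totals. The median log2 fold change of complex II on plain totals was -0.55, beside -1.04 for all genes. On spike-in totals 0 members passed, and the median was -0.008, beside -0.53 for all genes. Its summed level was 623, 477 and 579 CPM in blood and 984, 663 and 757 CPM in other cells of the same batches, lower in 3 of 3 with a mean log2 ratio of -0.51 (SD 0.14). Sdhb, the iron-sulfur subunit, was at 228, 219 and 169 CPM in blood against 350, 285 and 263 CPM in other cells, a fold change of -0.57 on plain totals (adjusted p = 0.04996) but 0.24 with TMM (adjusted p = 0.52). Sdhd, a membrane anchor, was at 129, 55.9 and 134 CPM against 297, 109 and 193 CPM, or -0.84 on plain totals (adjusted p = 0.033) and -0.02 with TMM. Sdhc, the second anchor, stood at 113 ± 15.5 and 164 ± 25.6 CPM and passed under neither. Sdha, the flavoprotein, stood at 135 ± 24.3 and 143 ± 9.66 CPM and was the member called with TMM (0.79, adjusted p = 0.043, and -0.02 on plain totals).

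In complex III, 6 of 8 members were higher in blood with TMM. Uqcrq, a small subunit that binds ubiquinone, was at 947, 740 and 810 CPM in blood and 781, 541 and 497 CPM in other cells of the same batches, higher in each pair. Its fold change was 1.34 (SE 0.22, adjusted p = 0.00036), or 0.53 on plain totals (adjusted p = 0.038). Uqcr11 stood at 1018 ± 88.2 CPM in blood and 836 ± 139 CPM in other cells, and Uqcr10 at 790.4 ± 90.1 and 702 ± 87.5 CPM. Both passed with TMM (1.07 and 0.93) and not on plain totals (0.26 and 0.12). The core protein Uqcrc1 was at 293 ± 23.6 and 311 ± 48.6 CPM, with a fold change of 0.75 with TMM that turned to -0.06 on plain totals. Uqcrfs1, the Rieske iron-sulfur protein, was at 267 ± 54.9 and 244 ± 69.5 CPM and missed the threshold with TMM (0.71, adjusted p = 0.075).

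Complex IV, cytochrome c oxidase, had 10 of its 14 tested members higher in blood with TMM. Promoter sequences of 3 of them are shown to compare the blood-enriched isoform Cox6b2 with its partner Cox6b1 and with Cox6a1. Each is a RefSeq window of 300 bases on build GRCm38.p6, from 250 bases before to 50 after the gene's start, written 5′ to 3′ on the gene's strand. All 3 genes lie on the minus strand and are protein-coding, with windows at chr7:4753045-4753344 for Cox6b2, chr7:30626065-30626364 for Cox6b1 and chr5:115348909-115349208 for Cox6a1. Capitals mark matches, on either strand, to the NRF1 palindrome with 1 free base near its centre, to the ETS (GABPA) letters CCGGAAG, or to the YY1 letters AAGATGGC.
Cox6b2: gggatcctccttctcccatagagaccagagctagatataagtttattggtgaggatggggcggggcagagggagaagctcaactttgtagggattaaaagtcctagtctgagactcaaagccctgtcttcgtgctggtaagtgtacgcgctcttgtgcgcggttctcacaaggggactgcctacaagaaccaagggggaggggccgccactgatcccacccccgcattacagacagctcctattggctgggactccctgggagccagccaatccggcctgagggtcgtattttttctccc
Cox6b1: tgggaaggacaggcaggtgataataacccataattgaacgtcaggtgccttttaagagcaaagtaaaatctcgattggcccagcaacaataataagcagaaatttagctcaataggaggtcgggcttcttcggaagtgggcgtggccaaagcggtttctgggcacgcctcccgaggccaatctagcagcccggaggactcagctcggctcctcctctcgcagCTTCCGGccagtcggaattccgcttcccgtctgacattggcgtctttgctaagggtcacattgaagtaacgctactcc
Cox6a1: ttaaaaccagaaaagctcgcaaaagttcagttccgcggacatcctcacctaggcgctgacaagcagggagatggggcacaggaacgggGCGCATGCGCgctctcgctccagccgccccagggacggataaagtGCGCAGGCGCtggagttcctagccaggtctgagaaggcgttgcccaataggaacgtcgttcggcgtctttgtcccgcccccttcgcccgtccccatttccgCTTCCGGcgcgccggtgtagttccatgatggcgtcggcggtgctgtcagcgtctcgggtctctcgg

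NRF1 and GABPA are transcription factors known for genes of the respiratory chain. The windows of 70 of the 84 members could be matched. The NRF1 palindrome with 1 free base was found in 17 of them (24.3%), compared with 5.19% of the 27025 genes with a window. The exact palindrome, a subset of these matches, was in 5 (7.14%, against 1.07%): Atp5g2, Atp5k, Cox6a1, Ndufa11 and Uqcrc1. The ETS letters were in 16 members (22.9%, against 9.93%) and the YY1 letters in 11 (15.7%, against 3.19%). For comparison, the SP1 letters GGGCGG were in 41.4% of members and 38.2% of genes, and TATAAA in 7 members and 15.7% of genes. Members higher in blood with TMM held the NRF1 palindrome with 1 free base in 11 of 45 windows. As printed, Cox6a1 holds matches to NRF1 and ETS letters, Cox6b1 holds 1 ETS match, and Cox6b2 holds none of the 3 capitalised kinds. A match is a description of these letters and does not show that a factor binds.

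Cox6b2, known as the testis isoform of subunit 6b, gave the largest fold change of the members called higher in blood. It stood at 285, 180 and 316 CPM in the blood sums of E9.5 replicate 2 and E10 replicates 2 and 3. In other cells it was at 111, 64.0 and 94.98 CPM in the same batches and at 30.6 and 46.4 CPM in E9.5 replicate 1 and E10 replicate 1. The groups did not overlap. The log2 fold change was 2.41 (SE 0.37, adjusted p = 0.00019), 2.11 on spike-in totals and 1.59 on plain totals (adjusted p = 0.0058). Against neural cells, at 3.27 to 53.5 CPM, it was 3.66 (SE 0.40, adjusted p = 1.88e-06) and 2.82 on plain totals.

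Cox6b1, the common form, was nearly equal in the 3 classes, at 1249 ± 107 CPM in blood, 1134 ± 170 CPM in neural and 1235 ± 170 CPM in other cells. Cox6b2 therefore supplied 17.0% ± 2.98 of the subunit 6b UMIs in blood (13.8% to 19.6%), 2.80% ± 1.67 in neural (0.263% to 4.32%) and 5.32% ± 2.28 in other cells (2.08% to 7.41%). This share does not depend on the scaling, and the blood batches lay above every other batch. UMIs of Cox6b2 were found in 45 of 46 blood cells, 34 of 49 neural cells and 155 of 199 other cells. The single blood cell of E9.5 replicate 1 held a share of 22.0% (95% Clopper-Pearson interval 18.9% to 25.3%, counting error only). The single blood cell of E10 replicate 1 held 0 of 991 UMIs (upper bound 0.372%), and it was also 1 of the cells with high Dppa5a.

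Among other cells Cox6b2 was uneven. Those with at least 50 CPM of Myb stood at 181 CPM in E9.5 replicate 2 (4 cells), 134 CPM in E10 replicate 2 (6 cells) and 180 CPM in E10 replicate 3 (4 cells), but at 21.7 and 14.99 CPM in E9.5 replicate 1 (2 cells) and E10 replicate 1 (4 cells). Other cells of E10 replicate 1 with high Dppa5a stood at 92.4 CPM. The remaining other cells were at 24.7 to 64.3 CPM in the 5 batches. Without the cells with high Myb or Dppa5a the fold change of blood against other cells was 3.03 (TMM, adjusted p = 4.80e-05). In E10 replicate 2 all 39 remaining other cells had a Cox6b2 UMI, and this is the batch in which haemoglobin took a median 5.19% of an other cell's UMIs; the part of free RNA in these counts was not tested. In E10 replicate 1, where that median was 0.033%, 26 of 47 remaining other cells had one.

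Cox6a1, the common form of subunit 6a, was at 1716, 1142 and 1544 CPM in blood and at 1055, 802 and 848 CPM in other cells of the same batches, which is higher in each batch. The lowest blood sum, at 1142 CPM, was just above the highest sum of other cells, 1132 CPM in E9.5 replicate 1. The fold change was 1.45 (SE 0.21, adjusted p = 8.15e-05), and 0.64 on plain totals (adjusted p = 0.0076). Its partner Cox6a2, the heart and muscle form, was listed at 0 throughout. Cox7b was at 937 ± 214 CPM in blood and 737 ± 107 CPM in other cells and passed with TMM (1.199, adjusted p = 0.00036) but not on plain totals (0.39, adjusted p = 0.08). Cox4i1 and Cox8a, both common forms, passed with TMM (0.74 and 0.70) and turned to -0.07 and -0.11 on plain totals.

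The other tissue-restricted forms of complex IV were rare. Cox4i2, a form known from lung and low oxygen, had 7 UMIs in 46 blood cells, 134 in 49 neural cells and 317 in 199 other cells. Its share of the Cox4 UMIs was 0.0425% ± 0.0262 in blood, 0.610% ± 0.622 in neural and 0.434% ± 0.249 in other cells, and it passed no class comparison (blood against other -2.77, SE 1.63, adjusted p = 0.28). Cox8b had 14 UMIs, all in 1 blood cell, Cox8c had 9 UMIs in 2 other cells, and Cox7b2 had 11 UMIs in 1 neural and 1 other cell. Cox7a2, the common form of subunit 7a, was at 953 ± 232 CPM in blood, 836 ± 116 CPM in neural and 867 ± 73.3 CPM in other cells.

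Cox7a1, the heart and muscle form of subunit 7a, was the 1 member called lower in blood than in neural cells with TMM. On plain totals 3 were called lower, and Cox7a1 was 1 of them. Blood sums held 0, 0.478 and 0.175 CPM, and neural sums of the same batches 10.98, 13.9 and 25.6 CPM, with 31.0 CPM in E10 replicate 1 and 0 in E9.5 replicate 1. The fold change was -4.90 (SE 1.34, adjusted p = 0.011), which rests on 5 UMIs in the blood sums. It also rests on few neural cells, since 13 of 49 had a Cox7a1 UMI. In E9.5 replicate 2, 1 of 7 neural cells held all 16 UMIs. In E10 replicate 2, 2 of 4 held all 20. The call was lost without E9.5 replicate 2 (adjusted p = 0.053) or E10 replicate 3 (adjusted p = 0.078). Against other cells the neural value missed the threshold (2.16, adjusted p = 0.24). In the neural sums Cox7a1 made up 2.01% ± 1.68 of the Cox7a1 and Cox7a2 UMIs.

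Within E10 replicate 1, Cox7a1 went with Dppa5a in other and neural cells, the classes that could be split. It was at 55.9 CPM in 20 other cells with high Dppa5a, of which 19 had a UMI, and at 2.36 CPM in 47 remaining other cells, of which 7 had one. In neural cells it was at 81.7 CPM in the 4 with high Dppa5a and 0.582 CPM in the other 11, and the 1 blood cell, with 2243 CPM of Dppa5a, held 76.1 CPM. In other cells of the remaining batches the sums were 0.806 to 2.90 CPM. In E10 replicate 3, where no kept cell reached 500 CPM of Dppa5a, 4 of 20 neural cells held the Cox7a1 UMIs behind its 25.6 CPM.

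**Figure D4:**
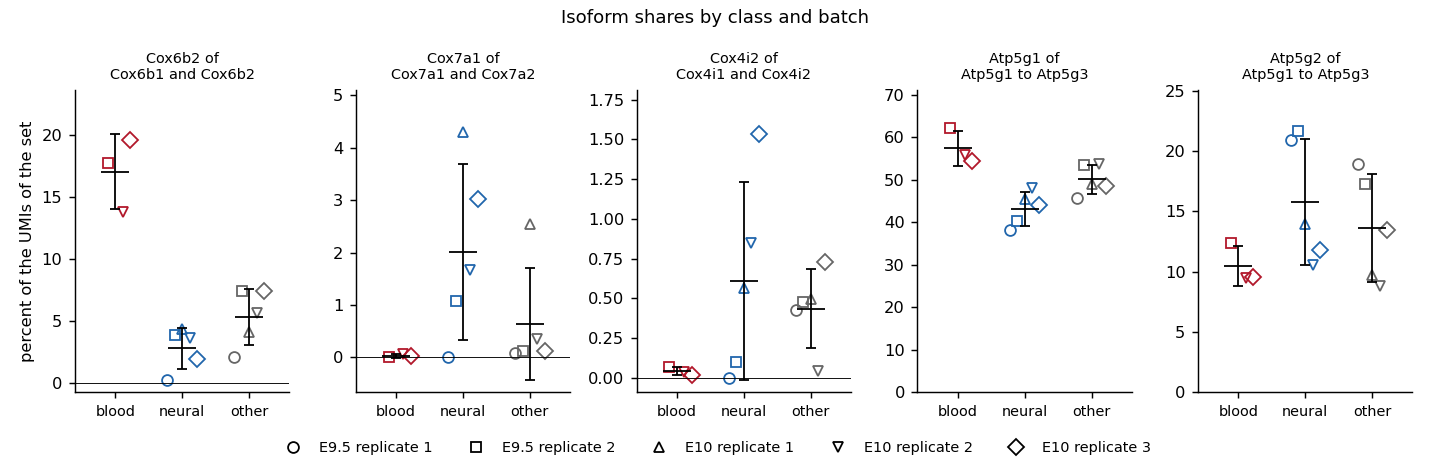
Share of isoform UMIs within 5 sets, in percent on linear axes, in blood (red), neural (blue) and other cells (grey); each symbol is 1 batch with at least 3 cells and bars are mean ± SD. Cox6b2 lies between 13.8% and 19.6% in blood and below 7.5% elsewhere, and Atp5g2 is highest at E9.5 in each class.

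Complex V makes ATP, and 9 of its 17 members were higher in blood with TMM. Atp5e, the epsilon subunit of the rotor, was at 2078, 1511 and 1547 CPM in blood and at 1122, 1118 and 1079 CPM in other cells of the same batches. The groups did not overlap, and the fold change was 1.48 (SE 0.20, adjusted p = 3.44e-05), or 0.67 on plain totals (adjusted p = 0.0035). The catalytic head subunits Atp5a1 and Atp5b were at 760 ± 10.5 and 1361 ± 91.3 CPM in blood, and 831 ± 91.5 and 1220.2 ± 107 CPM in other cells. They passed with TMM (0.61, adjusted p = 0.047, and 0.97, adjusted p = 0.0015), while on plain totals Atp5a1 was at -0.20 and Atp5b at 0.15.

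The 3 genes for subunit c, Atp5g1, Atp5g2 and Atp5g3, encode the same mature protein and differ in their import sequences. Atp5g1 supplied 57.4% ± 4.11 of their UMIs in blood, 43.1% ± 4.01 in neural and 50.1% ± 3.40 in other cells, and the 3 blood sums lay above those of other cells, narrowly: the lowest was 54.4% and the highest sum of other cells 53.6%. The single blood cells of E9.5 replicate 1 and E10 replicate 1 held 51.6% (95% Clopper-Pearson interval 47.8% to 55.3%) and 54.1% (51.2% to 57.0%). Other cells with high Myb held 1565 CPM of Atp5g1 in E9.5 replicate 2, and 1171 and 1437 CPM in E10 replicates 2 and 3. Blood held less in each of these batches, at 977, 802 and 840 CPM. In E9.5 replicate 1 and E10 replicate 1, other cells with high Myb held 572 and 565 CPM. These Myb groups are 2 to 6 cells each. Atp5g1 passed for blood against other cells with TMM (0.89, adjusted p = 0.0067; 0.08 on plain totals). Against neural cells it was 1.31 (adjusted p = 0.00019) and 0.47 on plain totals (adjusted p = 0.046). Atp5g2 and Atp5g3 did not pass between blood and other cells (0.48 and 0.58, adjusted p = 0.22 and 0.072).

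Between blood and neural cells, 59 members were higher in blood and 1, Cox7a1, was lower with TMM, where 12.4% and 12.1% of all genes were higher and lower. On TMM-scaled levels all 60 had the same direction in 3 of 3 batches, against 33 on plain CPM, where 3 had the opposite direction in 3 of 3. On plain totals 12 were higher and 3 lower (3.58% and 25.8% of genes), and on spike-in totals 6 were higher and 1 lower (4.0% and 15.6%). DESeq2 called 62 higher and 1 lower (14.5% and 17.5%). The 6 were Ndufa5, Ndufa6, Ndufs3, Uqcrq, Cox6a1 and Cox6b2. Ndufa5, a complex I subunit of the matrix arm, was at 575, 503 and 577 CPM in blood against 335, 388 and 315 CPM in neural cells of the same batches, a fold change of 1.54 (SE 0.22, adjusted p = 4.60e-05). These comparisons share the blood samples with those against other cells.

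Few members differed between neural and other cells. With TMM 0 members were higher and 1, Cox6b2, was lower in neural cells, where 3.14% and 2.45% of all genes were called. At an unadjusted p under 0.05, 2 were higher and 8 lower, beside 7.98% and 10.8% of all genes. DESeq2 called 0 and 1 (5.87% and 4.49% of genes). On plain totals 0 were higher and 2 lower, Cox6b2 and Ndufa5 (3.07% and 2.16%), and on spike-in totals 0 and 0 (3.43% and 1.47%). Cox6b2 was at 3.27, 53.5, 47.6, 33.3 and 22.9 CPM in neural cells and 30.6, 111, 46.4, 64.0 and 94.98 CPM in other cells, from E9.5 replicate 1 to E10 replicate 3, so it was lower in 4 of 5 batches by CPM. The fold change was -1.25 (SE 0.33, adjusted p = 0.027). It missed the threshold without E9.5 replicate 1 (adjusted p = 0.073), E9.5 replicate 2 (0.093) or E10 replicate 3 (0.085), and without the other cells high in Myb or Dppa5a (0.43). With every cell thinned to 30000 UMIs it also missed (-0.997, adjusted p = 0.106). The members' median log2 fold change was -0.14, beside -0.13 for all genes.

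The stages were compared in other cells, the class with most cells in every batch. The members' summed level was 40282 and 43679 CPM at E9.5 and 32468, 36468 and 37479 CPM at E10, so each E10 batch lay below both E9.5 batches. The means were 41980.2 ± 2402 and 35472 ± 2650.0 CPM, which is lower by 15.5% at E10, and the groups did not overlap. By complex the sums changed by -17.8% (I), -18.9% (II), -17.6% (III), -19.3% (IV) and -8.37% (V). The log2 ratio of all members was -0.24, and -0.18 without E10 replicate 1, the lowest batch.

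No member passed the stage test. The count was 0 higher and 0 lower by edgeR, as for all genes, of which 0 in each direction were called, while at an unadjusted p under 0.05 there were 0 higher and 18 lower, beside 4.58% of all genes lower and 6.11% higher. DESeq2 called 0 higher and 3 lower, where it called 1.33% of all genes higher and 1.13% lower: Ndufa1, Ndufa7 and Cox4i1. Of the 79 members, 38 had all E10 batches below all E9.5 batches in CPM and 1, Atp5g3, the reverse, where 10.1% and 20.4% of all genes did so. The 38 comprised 17 members of complex I, 2 of complex II, 4 of complex III, 9 of complex IV and 6 of complex V. The members' median fold change was -0.40 with TMM and -0.28 on plain totals, beside 0.06 and 0.18 for all genes.

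Single members show the size of these changes. Cox4i1, the common form of subunit 4, stood at 1350.5 and 1353 CPM at E9.5 and at 972, 1011 and 930.4 CPM at E10 (-0.59, SE 0.19, edgeR adjusted p = 0.44, DESeq2 adjusted p = 0.045). Ndufa1, a small complex I subunit, stood at 351 and 331 CPM, then at 194, 217 and 246 CPM (-0.76, SE 0.22, edgeR adjusted p = 0.43, DESeq2 0.038). Atp5g2 had the lowest fold change of the tested members, -0.98 (SE 0.28, adjusted p = 0.43), with 286 and 313 CPM at E9.5 and 138, 133 and 226 CPM at E10. Its share of the subunit c UMIs was 19.0% and 17.3% at E9.5 and 9.72%, 8.81% and 13.5% at E10. In neural cells that share was 20.9% and 21.7% at E9.5 and 14.0%, 10.6% and 11.8% at E10. Blood cells gave 12.4% in the 1 E9.5 batch and at most 9.54% in the E10 batches, so the E9.5 values were the higher ones in each class. Atp5g3 stood at 532 and 528 CPM at E9.5 and at 585, 570 and 636 CPM at E10, with a fold change of 0.05 that did not pass (adjusted p = 0.95). Each batch holds 1 stage, so stage and batch differences cannot be told apart beyond the spread between these 5 batches.

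**Figure D5:**
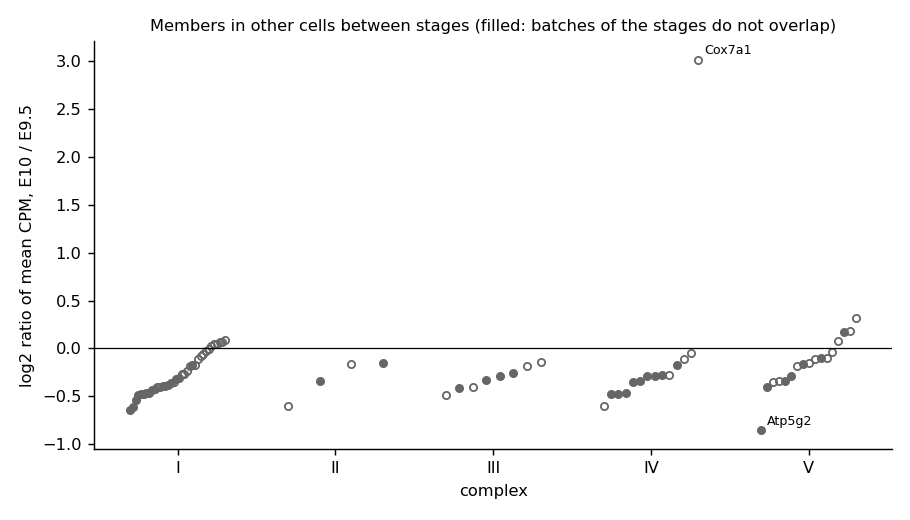
Log2 ratio of mean CPM in other cells, 3 E10 batches against 2 E9.5 batches, for each tested member by complex; filled points are members whose batches do not overlap between the stages. Most points lie below 0, Atp5g2 is the lowest, and Cox7a1 is the highest, with E10 replicate 1 at 19.8 CPM and the other batches at 0.806 to 2.90 CPM.

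Whether the difference between classes depended on stage could be tested only weakly, since blood of E9.5 was 1 sum of 10 cells from 1 batch. By edgeR the interaction of class and stage passed for 0 members in blood and 0 in neural cells, where 0.0% of all genes passed, and DESeq2 also gave 0 and 0. DESeq2 called 0.0316% of all genes higher and 0.0158% lower in blood, and 0.111% and 0.0474% in neural cells. At an unadjusted p under 0.05 edgeR gave 0 members in either class, beside 1.18% of all genes higher and 0.766% lower in blood and 2.36% and 1.16% in neural cells.

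Genes that work with the respiratory chain were compared between blood and other cells by the same fit. Counts and fold changes use TMM unless plain totals are named. With TMM 6.75% of all genes were higher and 7.28% lower, with a median fold change of -0.25, and on plain totals 1.93% and 21.9%. Of the assembly factors, which build the complexes without staying in them, 1 of 13 tested for complex I was higher, 0 of 4 for complex II, 1 of 6 for complex III, 2 of 16 for complex IV and 0 of 3 for complex V, and 0 were lower. On plain totals 2 were higher, both for complex IV, and 1, for complex II, was lower. The complex IV factors were Cox17, a copper chaperone, at 920 CPM in blood and 405 CPM in other cells (1.81, adjusted p = 0.00017), and Pet100, at 172 and 103 CPM (1.56, adjusted p = 0.00041). Both also passed on plain totals (0.99 and 0.75). Ndufaf1 was the complex I factor (1.58) and Uqcc2 the complex III factor (0.79). Cyc1, the cytochrome c1 subunit of complex III whose name the selection does not cover, was at 321 and 315 CPM (0.78, adjusted p = 0.027; -0.04 on plain totals).

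Of 17 genes of the tricarboxylic acid cycle and pyruvate dehydrogenase, 4 were higher in blood, among them the citrate synthase gene Cs (0.98, adjusted p = 0.0082; 0.16 on plain totals), and 1 was lower; on plain totals 0 were higher and 1 lower. The lower one was Idh2, the NADP-dependent mitochondrial isocitrate dehydrogenase, at 40.6 CPM in blood against 239 CPM in other cells (-1.75, SE 0.29, adjusted p = 0.0004; -2.54 on plain totals). None of 13 regulators of mitochondrial biogenesis passed in either direction with TMM, with a median fold change of -0.36, beside -0.25 for all genes. On plain totals 4 of them were lower, where 21.9% of all genes were. All 10 genes of mitochondrial iron handling and haem synthesis were higher, 7 of them also on plain totals, led by the iron importer Slc25a37 at 1203 CPM in blood and 74.0 CPM in other cells (4.92, SE 0.42). The blood class was defined by Alas2, so this list is not independent of it. Of 5 genes of mitophagy in red cell maturation 1 was higher and 0 were lower, with a median fold change of -0.04, and 0 passed on plain totals. The higher one was Bnip3l, which marks mitochondria for removal in maturing red cells, at 134 and 138 CPM (0.84 with TMM, adjusted p = 0.026; 0.03 on plain totals).

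In neural cells 2 of 7 tested genes of a list of low-oxygen and isoform genes were higher and 1 was lower than in other cells, beside 3.14% and 2.45% of all genes. Ndufa4l2, a relative of Ndufa4 that the selection leaves out, stood at 232 CPM in neural cells, 4.74 CPM in other cells and 5.94 CPM in blood (neural against other 5.39, SE 0.44, adjusted p = 4.91e-08; 5 of 5 batches). Epas1, the transcription factor HIF-2 alpha, was at 72.8 and 4.84 CPM (3.35, adjusted p = 0.013). Pdk1, which restrains pyruvate dehydrogenase, was lower in neural cells, at 17.0 against 66.1 CPM (-2.10, adjusted p = 0.0004).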

How the data were processed

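Single cells were lysed and sequenced with a modified STRT-seq protocol using UMIs, per the labels' protocols; the series description calls it Smart-Seq. Per the submitters' processing notes, CASAVA 1.8, TopHat2 2.0.12 and HTSeq were used with build mm10. The authors deposited 1 table of UMI counts, whole numbers for 24411 genes, 95 spike-in and reporter rows and 480 wells; the sources do not say whether counting used strand, so counts of members with overlapping genes or near-identical copies, such as processed pseudogenes, are uncertain.

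Members, classes and gene lists were chosen with earlier results of these data known. Gene counts were summed per batch and class (at least 3 cells) and fitted in edgeR 4.0.16 (R 4.3.3) over all genes: filterByExpr, TMM, quasi-likelihood test, Benjamini-Hochberg at 0.05, with batch as a block for classes, whose sums of a batch come from 1 collection, and no block for stages. Reported CPM are on plain totals; 1 UMI stands for 1 molecule, so levels were not scaled by length. DESeq2 1.42.0 was the second tool. The standard error is the fold change over the square root of F. No doublet caller was run, because cells were picked singly. The fit was tested on simulated counts in which genes changed in both directions and batches did not differ. The simulated blood sums had no shift like that of haemoglobin, so that test says nothing about the choice of scaling.

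Named members were the isoform sets, the core subunits, up to 3 called members per complex, direction and comparison with the largest fold change and 1 direction in every batch, and the most abundant member of each complex; some items are not reported here. Ndufa1 and Ndufa7 were named after their values were seen. Spike-in totals, and totals without haemoglobin genes combined with no scaling factors, were alternatives chosen after seeing the data. The other alternatives were plain totals, other size factors, DESeq2, other limits for cells and classes, thinned cells, no filter, no replicate block and leaving out each batch.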

Additional observations from a re-analysis of the deposited data

Results flagged for a closer look

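In 90 groups of 4 or more batches, 4 values lay farther from their group than a gap test (Dixon, 95% level) allows, and chance flags about 1 group in 20. Cox6a1 was low in neural cells of E10 replicate 1, at 667 CPM, where the other 4 batches stood at 919 to 975 CPM. Cox7a1 was high in other cells of E10 replicate 1, at 19.8 CPM, against 0.806 to 2.90 CPM elsewhere; the cells with high Dppa5a of that batch held it, as described above. Cox7b2 was at 1.26 CPM in neural cells of E10 replicate 3, from 1 cell, and at 0 in the other neural sums. Uqcr11 was high in neural cells of E9.5 replicate 1, at 1001 CPM from 3 cells, against 638 to 726 CPM.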

How the results depend on the processing

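The number of members called between blood and other cells was 53 as reported and 9 on plain totals (7 higher and 2 lower), 11 on totals without haemoglobin genes and scaling factors and 7 on spike-in totals. Without 1 batch it ran from 19 to 52. Between blood and neural cells 60 became 15, 24 and 7 under these settings, and 42 to 61 without 1 batch. Between neural and other cells 1 became 2 on plain totals, with or without haemoglobin genes, and 0 with class limits at 50%, a minimum of 10 cells, no replicate block, spike-in totals or other cells without high Myb or Dppa5a; without 1 batch it ran from 0 to 1. Between stages 0 became 3 with DESeq2 and stayed 0 without any 1 batch. With no replicate block for the batch, 46 members were called between blood and other cells and 56 between blood and neural cells. No paired analysis was possible between the stages because replicate numbers were given in accession order and each batch holds 1 stage.

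The log2 ratio of the summed members, blood to other, was 0.04 as reported and 0.093 with cells thinned to 30000 UMIs, 0.16 without other cells high in Myb or Dppa5a, 0.27 on totals without haemoglobin genes and 0.094 as a mean over cells; neural to other turned from -0.08 to 0.027 without those other cells. On plain totals these values changed sign, blood against other: Atp5a1 -0.20, Cox4i1 -0.068, Cox8a -0.11, Sdha -0.023, Sdhb -0.57 (called there and not with TMM) and Uqcrc1 -0.059; and blood against neural: Atp5a1 -0.14, Atp5g3 -0.24 (and -0.013 on totals without haemoglobin genes and scaling factors), Cox4i1 -0.14, Ndufv1 -0.12 and Uqcrfs1 -0.12. These settings leave out the factors of 0.60 to 0.69 for blood that TMM applies. The cause of the other changes was not tested. Over 137 results for named members and 2463 settings, 2261 kept direction and side of the threshold. The interaction in blood could not be fitted without E9.5 replicate 2, nor that in neural cells with a minimum of 10 cells.

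Blood rests on 3 batches, and E9.5 replicate 1 gives a neural sum of 3 cells, so small differences could not be detected. Members with under 20 UMIs (Cox7b2, Cox8b and Cox8c) carry no comparison.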

Other observations

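Within the blood class, the summed level of the members fell with the haemoglobin share of a cell. Over cells of 1 batch, Pearson's r on the log2 scale was -0.85 (10 cells, E9.5 replicate 2), -0.50 (23 cells, E10 replicate 2) and -0.52 (11 cells, E10 replicate 3). Both values are parts of the same total, so these are descriptions. With Alas2, which defined the class, r was 0.21, 0.09 and -0.71. Cox6b2 followed neither Alas2 (0.16, 0.23 and -0.09) nor the members' sum (0.14, -0.34 and -0.05).

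In other cells the members were spread over a wide range of levels. Among members above 1 CPM, which leaves out Ndufs5 at 0, complex I ran from 91.2 CPM (Ndufs1) to 857 CPM (Ndufa4). Complex III ran from 220.5 CPM (Uqcrc2) to 836 CPM (Uqcr11). Complex V ran from 9.60 CPM (Atp5s, counted there by symbol) to 1220.2 CPM (Atp5b). The 19 most abundant members carried 48.3% of the members' UMIs, led by Cox6b1 at 1235 CPM.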
